A study of Mus musculus with 33 samples.

Results

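The genes described here encode 10 subunits of the SWI/SNF chromatin remodelling complexes, namely Smarca2, Smarca4, Arid1a, Arid1b, Arid2, Pbrm1, Phf10, Smarcb1, Smarcc1 and Smarcd2. They were chosen by symbol, with no use of their measured values, and are 10 of the 56748 gene IDs in the count table. All 10 had enough counts to be tested. Messenger RNA of mouse bone marrow was sequenced in 33 libraries, 3 for each of 11 populations. The stem cell populations were the long-term and the short-term repopulating cells, LT-HSC and ST-HSC. The progenitors were MPP (multipotent), CMP (common myeloid), GMP (granulocyte and macrophage), MEP (megakaryocyte and erythroid) and CLP, usually read as common lymphoid progenitor. The mature cells were sorted as CD3e T cells, as CD11b+ cells or as B220+ cells, and 3 libraries are labelled BM, for bone marrow. Cells bearing lineage antigens were first removed for the stem and progenitor sorts, but not for the mature ones. The labels name no treatment or genetic change, and strain, age, sex and sort gates are not given in the sources used here. Nor do the labels say whether the 3 libraries of a population came from separate animals, so the p-values below measure the spread between libraries, which may be technical.

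SWI/SNF complexes use the energy of ATP to move or eject nucleosomes and so open chromatin at promoters and enhancers. Each complex holds a single ATPase, either BRM (encoded by Smarca2) or BRG1 (Smarca4). It sits on a core with products of Smarcc and Smarcd genes, and of Smarcb1 in the BAF and PBAF forms named next. The canonical BAF form carries ARID1A or ARID1B together with a DPF protein such as DPF2, the PBAF form carries ARID2, PBRM1, PHF10 and BRD7, and the non-canonical form carries BRD9 with a BICRA-type subunit. Because most of the paired subunits exclude each other within a complex, the ratios of their transcripts are given below, although transcripts are not proteins. The products of Smarcc1 and Smarcc2 can occur in the same complex, so their ratio does not set forms of the complex apart. In blood formation, BRG1 is known to be needed for erythroid and lymphoid development, and SMARCD2 for granulocyte maturation.

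Promoter sequences of 9 of the 10 genes matched the RefSeq table of GRCm38.p6. The 3 printed here are those of the ATPase pair, whose balance the first results concern, and of Phf10, the member with the widest range. Each runs 5′ to 3′ on the strand of its gene and covers the 250 bases before the start. Smarca2 lies at chr19:26604910-26605159 on the + strand, Smarca4 at chr9:21615919-21616168 on the + strand and Phf10 at chr17:14961261-14961510 on the - strand. Capitals mark a match to the ETS motif CCGGAAG, on either strand.
Smarca2: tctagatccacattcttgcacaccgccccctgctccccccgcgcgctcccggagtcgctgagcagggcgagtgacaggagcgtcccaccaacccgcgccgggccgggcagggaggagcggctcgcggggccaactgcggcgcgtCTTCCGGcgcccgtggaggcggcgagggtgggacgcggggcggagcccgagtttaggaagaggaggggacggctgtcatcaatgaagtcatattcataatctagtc
Smarca4: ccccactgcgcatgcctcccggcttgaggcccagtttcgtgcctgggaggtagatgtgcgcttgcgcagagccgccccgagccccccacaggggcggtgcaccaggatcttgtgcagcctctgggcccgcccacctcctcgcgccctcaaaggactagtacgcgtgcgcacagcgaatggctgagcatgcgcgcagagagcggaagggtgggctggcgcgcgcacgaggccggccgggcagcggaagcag
Phf10: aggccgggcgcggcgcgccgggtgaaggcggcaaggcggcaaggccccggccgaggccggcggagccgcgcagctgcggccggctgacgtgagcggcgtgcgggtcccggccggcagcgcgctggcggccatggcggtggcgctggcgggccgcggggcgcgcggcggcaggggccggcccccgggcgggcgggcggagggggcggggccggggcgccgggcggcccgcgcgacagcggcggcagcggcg
The GC content was 68.4% for Smarca2, 70.8% for Smarca4 and 88.4% for Phf10, with 28, 25 and 51 CpG dinucleotides. The ETS match of Smarca2 lay 106 bases before the start, and 7.05% of 27025 mouse promoters of this length hold such a match. The GATA motifs AGATAA (in 10.3% of promoters) and TGATAA (8.16%), the E-box CACGTG (6.05%) and a full-length NRF1 motif (0.781%) had no match on either strand in these 3 windows. Among the other members, Smarcc1 held 2 ETS matches, a promoter of Arid1a held TGATAA 85 bases before its start and Pbrm1 held the E-box 135 bases before its start.

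Libraries held 11997186 to 32022325 counts. Levels below are in CPM (counts relative to the library total) after TMM scaling, a correction for RNA composition, given as mean ± SD of 3 libraries, and per kb of the longest coding transcript where different genes are set side by side. Several defining markers were highest where the label places them. The erythroid genes Gata1, Klf1 and Epor were at 835, 1440 and 280 CPM in MEP, and Cd3e, Cd3d, Trac and Lck summed to 1840 CPM in CD3e T cells. The platelet gene Pf4 was not among them, with 12 CPM in MEP and 618 CPM in LT-HSC, and the LT-HSC markers Slamf1, Hlf, Procr and Mecom summed to 382 CPM in LT-HSC and 385 CPM in ST-HSC. The library groups labelled CLP, MPP and CMP went partly against their labels, and CD3e T cells carried markers of other cells beside their own. The lymphoid progenitor markers Il7r, Flt3, Dntt and Rag1 summed to 525 to 546 CPM in CLP but to 3240 to 3270 CPM in CMP. That gap came from Dntt (222 CPM in CLP, 2460 CPM in CMP) and Flt3 (253 CPM in CLP, 743 CPM in CMP), while Rag1 was higher in CLP (13.9 CPM, against 5.55 CPM in CMP) and Il7r was at 45.7 CPM in CLP and 42.9 CPM in CMP. The basophil and eosinophil markers Prss34, Mcpt8, Epx and Prg2 summed to 8390 to 8800 CPM in CLP and 8400 to 8670 CPM in MPP, against 14.7 to 19 CPM in CMP. In CD3e T cells the basophil and eosinophil markers summed to 6010 to 6040 CPM. Most of it was Prss34 (4520 CPM) and Mcpt8 (1460 CPM), while Epx was at 4.71 CPM and Prg2 at 43.9 CPM. B cell markers summed to 675 to 693 CPM there and plasma cell markers to 3670 to 3720 CPM, mostly Jchain (3260 CPM). The stromal markers Col1a1, Col1a2, Bglap and Cxcl12 reached 1920 to 2030 CPM in CLP and 3130 to 3150 CPM in LT-HSC. Granulocyte-monocyte progenitor markers summed to 32000 to 32700 CPM in MPP, and plasma cell markers to 7840 to 8070 CPM there, of which Jchain made up 7380 CPM, while Sdc1 and Prdm1 were higher in other populations. In CLP against MPP the median log2 fold change ran from -0.68 in quartile 1 of transcript length, the shortest, through -0.34 and 0.06, to 0.93 in quartile 4. Values with this trend taken out are therefore given beside results that rest on CLP.

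The 2 ATPase genes were highest and lowest in different populations. Smarca2 was highest in LT-HSC and lowest in MEP, a 10.1-fold range. Smarca4 was highest in B220+ cells and lowest in ST-HSC, a 4.54-fold range. Among the 11692 genes that reached 10 CPM in some population the median range was 7.74-fold. In a fit of any difference among the 11 populations all 10 members passed, as did 99.9% of the 20464 genes tested, so passing that test says little about these genes in particular.

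**Figure D1:**
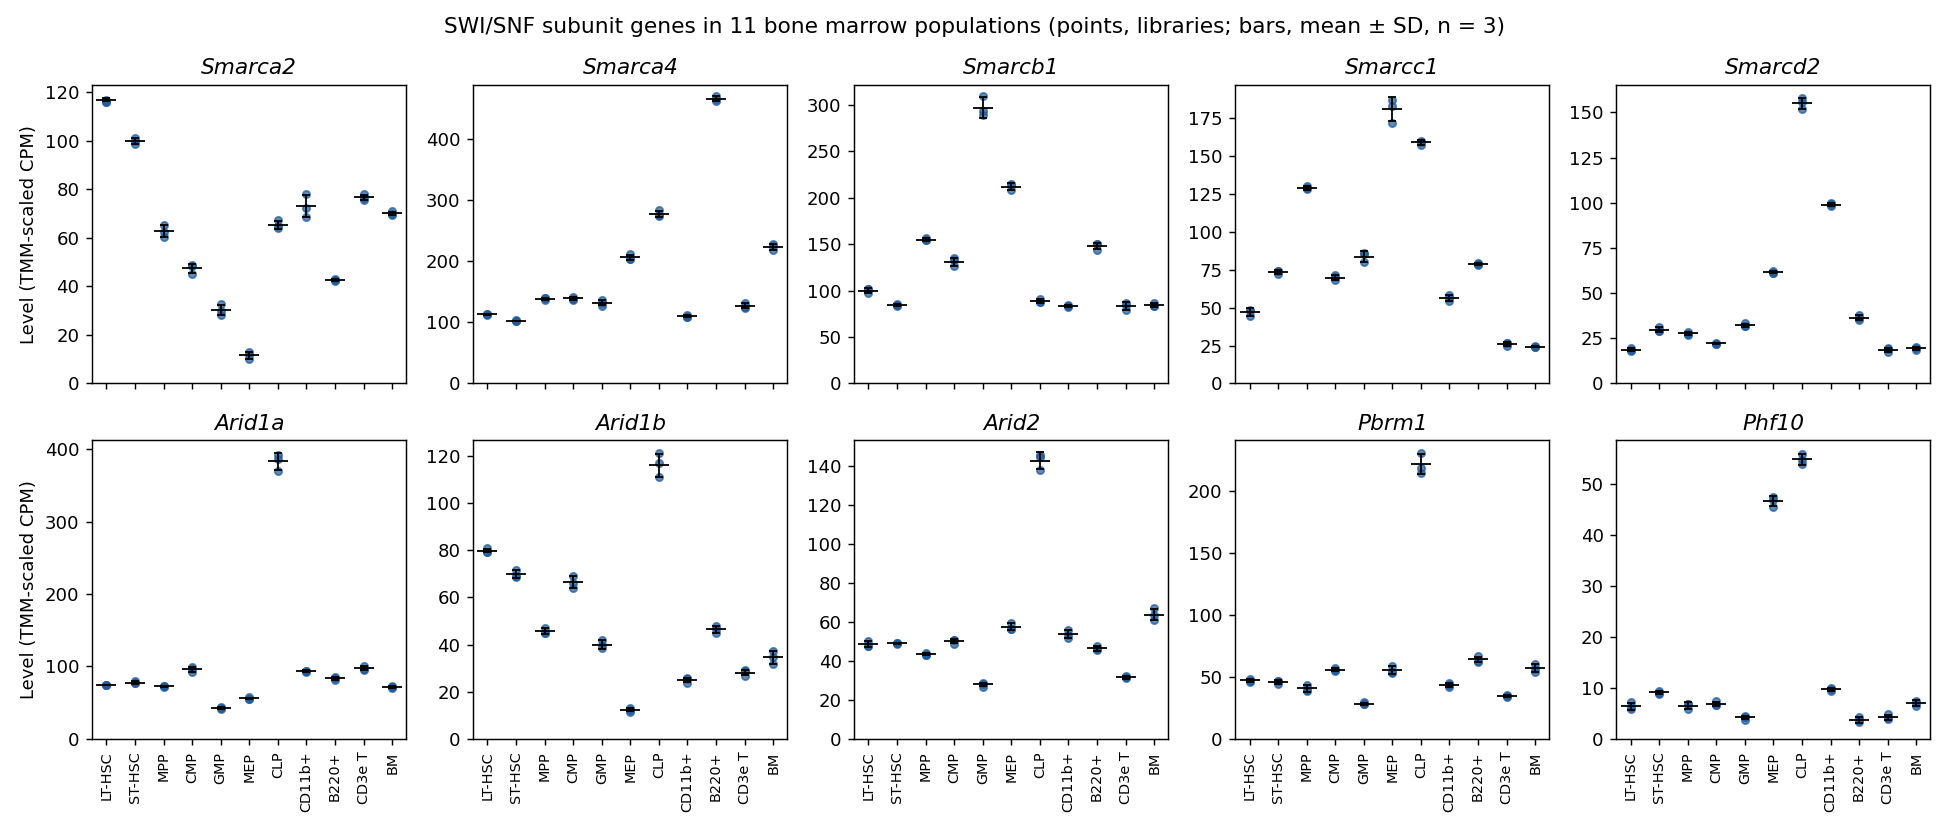
Level of each of the 10 subunit genes (vertical axes, TMM-scaled CPM from 0) in the 11 populations (horizontal axes). Points are libraries and bars give mean ± SD of 3 libraries. Smarca2 falls stepwise to 11.6 CPM in MEP and Smarca4 peaks at 465 CPM in B220+ cells. The ARID and PBAF genes peak in CLP in these levels, from which the length and GC trend is not taken out.

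Smarca2 measured 117, 116 and 116 CPM in the LT-HSC libraries, 98.8, 101 and 100 CPM in ST-HSC and 65.3, 60.4 and 62.3 CPM in MPP. It measured 48.3, 48.8 and 45.2 CPM in CMP, 28.4, 32.6 and 30.0 CPM in GMP and 11.7, 9.96 and 13.0 CPM in MEP. From LT-HSC to the myeloid progenitors every step was downward, and no library of a later stage reached any library of the stage before it. Scaled by library size alone, however, Smarca2 was higher in CMP than in MPP, at 0.27 in log2. In the mature and remaining fractions the level was 73.1 ± 4.62 CPM in CD11b+ cells, 42.7 ± 0.299 CPM in B220+ cells, 76.7 ± 1.1 CPM in CD3e T cells, 70.1 ± 0.751 CPM in BM and 65.4 ± 1.59 CPM in CLP. The libraries of CD3e T cells and CD11b+ cells overlapped, as did those of CD11b+ cells and BM, and those of CLP and MPP. In MEP the gene fell 4.07-fold relative to CMP (log2 fold change -2.02 ± 0.059 SE, edgeR quasi-likelihood adjusted p = 1.97e-103). In CD11b+ cells it was 2.39-fold higher than in GMP (1.26 ± 0.0505, edgeR adjusted p = 3e-73). In this pooled material fewer cells of one type and less RNA per cell cannot be told apart. What part the stromal markers of LT-HSC had in the Smarca2 level there was not tested.

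Smarca4 followed another order. Its level was 113 ± 0.857 CPM in LT-HSC, 102 ± 0.702 CPM in ST-HSC, 138 ± 1.42 CPM in MPP, 139 ± 2.49 CPM in CMP and 132 ± 4.48 CPM in GMP. MPP and CMP overlapped, and so did GMP and CD3e T cells (127 ± 4.07 CPM). The MEP libraries measured 211, 204 and 204 CPM, against 136, 138 and 141 CPM in CMP, with no overlap. That 1.49-fold rise (log2 0.57 ± 0.0297, edgeR adjusted p = 2.52e-53) became -0.34 when libraries were scaled by their size alone, a setting that moved the median of all genes to -1.17. The B220+ libraries measured 469, 461 and 464 CPM, against 274, 275 and 283 CPM in CLP, and every B220+ library was above every other library of the study. The gene was 1.68-fold higher in B220+ cells than in CLP (log2 0.75 ± 0.0269, edgeR adjusted p = 7.94e-83), and 4-fold higher with the length and GC trend taken out. In CD3e T cells it was 2.19-fold lower than in CLP, but by a log2 difference of only -0.02 with the trend taken out (edgeR adjusted p = 0.648). CLP against MPP also turned, being 2.01-fold higher as fitted and at a log2 fold change of -0.21 with the trend out.

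Set side by side per kb of transcript, the 2 ATPase genes were near equal in stem cells and far apart in 2 descendants. Smarca2 stood at 19.7 CPM per kb in LT-HSC and Smarca4 at 17.8 CPM per kb. In MEP the levels were 1.95 CPM per kb for Smarca2 and 32.3 CPM per kb for Smarca4. In B220+ cells they were 7.21 CPM per kb and 72.9 CPM per kb. The ratio of both genes' counts within a library does not depend on scaling between libraries. It was 1.03 in LT-HSC, 0.977 in ST-HSC, 0.454 in MPP, 0.342 in CMP, 0.230 in GMP, 0.0559 in MEP, 0.236 in CLP, 0.665 in CD11b+ cells, 0.0918 in B220+ cells, 0.606 in CD3e T cells and 0.315 in BM. The ratio fell 6.12-fold in MEP relative to CMP, and 2.57-fold in B220+ cells relative to CLP. It was 2.89-fold higher in CD11b+ cells than in GMP and 2.57-fold higher in CD3e T cells than in CLP. In each of these 4 steps the libraries did not overlap, and the direction was kept with the trend taken out (log2 differences of -2.66, -1.78, 1.32 and 1.05 in the order given). B220+ cells and CD3e T cells share CLP as the population they are set against.

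Across the 33 libraries a permutation test of the population labels gave p = 1e-05 for this ratio, the smallest value that 100000 resamples can give. The same value was obtained for each of 8 subunit ratios, and 1e-05 also after adjustment over the 8. With 99.9% of the genes tested differing among the populations, reaching this value says little about these ratios in particular. Ratios of other gene pairs were not tested. Comparing 3 libraries with 3 cannot give an exact permutation p below 0.1, so single steps of a ratio are described by whether the libraries overlap. Of 72 pairs of a step and a ratio, 6 overlapped.

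**Figure D2:**
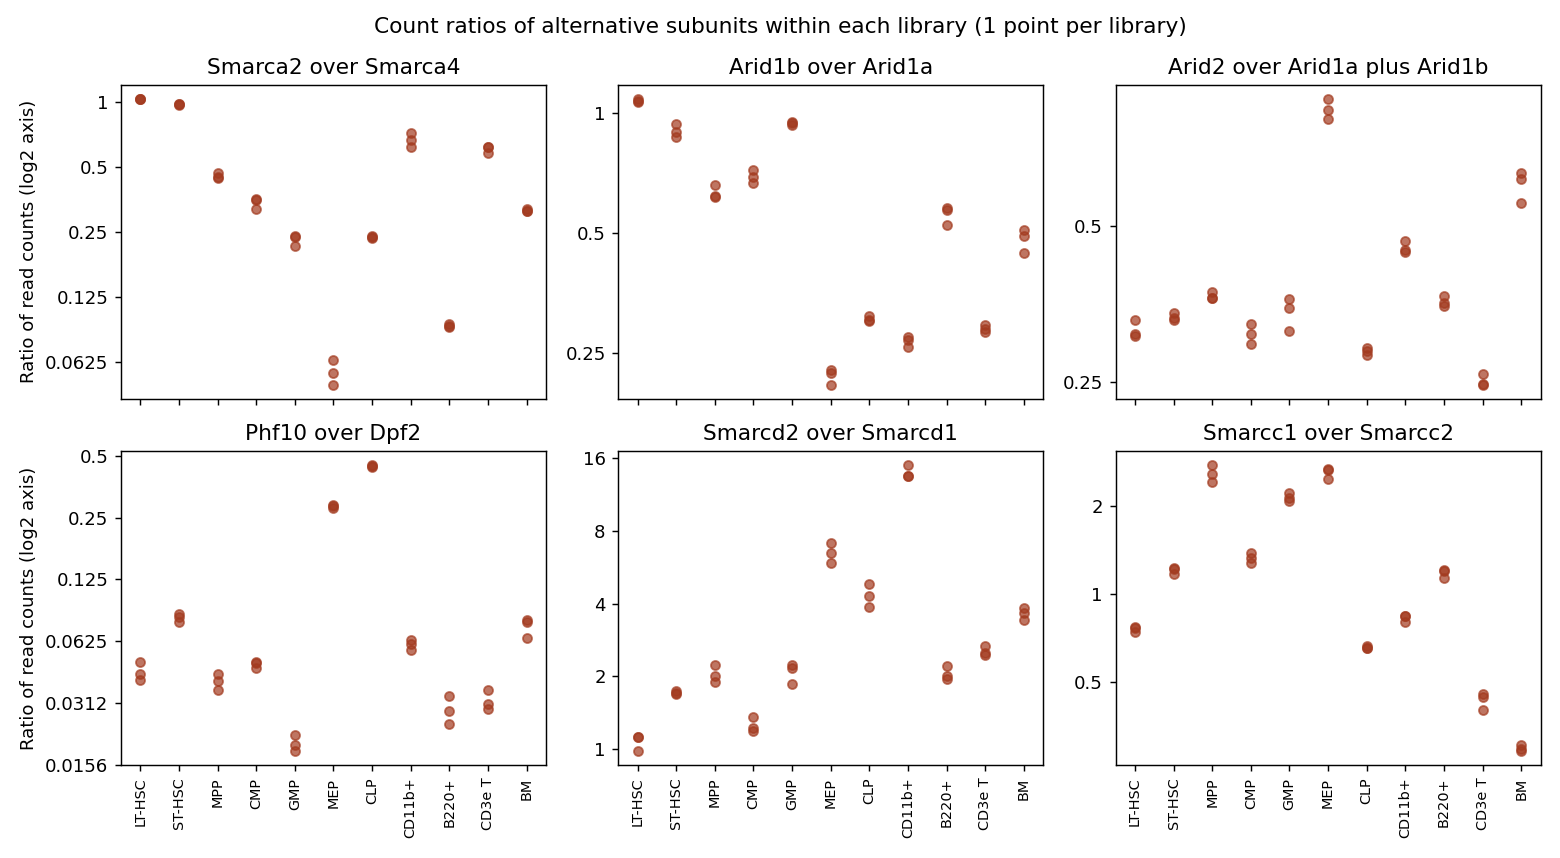
Ratio of read counts of paired subunit genes within a library in the 11 populations, with 1 point per library. Vertical axes have a log2 scale and are not corrected for transcript length. Smarca2 over Smarca4 is 1.03 in LT-HSC and 0.0559 in MEP, Arid2 over the sum of Arid1a and Arid1b peaks at 0.841 in MEP, and Phf10 over Dpf2 peaks at 0.446 in CLP.

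The ARID genes encode the subunits that set BAF apart from PBAF. As fitted, Arid1b was lowest in MEP, while Arid1a and Arid2 were lowest in GMP and all 3 peaked in CLP. In log2 the length and GC trend in CLP was 1.2 for Arid1a, 1.03 for Arid1b and 0.98 for Arid2. For Arid1b it was 0.16 in CMP, and for Arid2 it was -0.55 in MEP and -0.7 in GMP. The order of the populations for Arid1b and Arid2 therefore depends on whether the trend is taken out. Arid1b measured 12.3, 12.9 and 11.6 CPM in MEP, against 64.0, 66.2 and 69.0 CPM in CMP. The MEP libraries were the lowest of the study for this gene and did not overlap those of any other population. The fall was 5.43-fold (log2 -2.44 ± 0.0563, edgeR adjusted p = 6.55e-128), or -1.69 on the log2 scale with the trend taken out. Arid1a, which encodes the alternative large subunit of the same position, fell 1.72-fold (log2 -0.78 ± 0.0379, edgeR adjusted p = 3.57e-58), or -0.23 with the trend out. Arid2, the PBAF counterpart, averaged 57.6 ± 1.84 CPM in MEP and 50.3 ± 1.12 CPM in CMP, a 1.15-fold rise (edgeR adjusted p = 6.21e-06) that was -0.72 in log2 when scaled by library size alone and 0.89 with the trend out.

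Among stem cells and progenitors Arid1b was at 79.8 ± 0.756 CPM in LT-HSC, 69.8 ± 1.62 CPM in ST-HSC and 45.7 ± 1.24 CPM in MPP, and its GMP libraries measured 38.4, 41.8 and 39.7 CPM. In CD11b+ cells it was at 25.0 ± 0.937 CPM, in CD3e T cells at 28.1 ± 1.16 CPM and in B220+ cells at 46.5 ± 1.51 CPM. The ST-HSC libraries overlapped those of CMP, and the B220+ libraries those of MPP. The ratio of Arid1b to Arid1a counts was 1.07 in LT-HSC, 0.899 in ST-HSC, 0.629 in MPP, 0.690 in CMP, 0.940 in GMP, 0.219 in MEP, 0.304 in CLP, 0.266 in CD11b+ cells, 0.556 in B220+ cells, 0.287 in CD3e T cells and 0.480 in BM. It was 3.15-fold lower in MEP than in CMP and 3.53-fold lower in CD11b+ cells than in GMP, with no overlap in either step. In CD11b+ cells the genes moved in opposite directions relative to GMP, with Arid1a 2.19-fold higher (log2 1.13 ± 0.0435, edgeR adjusted p = 3.06e-77) and Arid1b 1.60-fold lower (-0.68 ± 0.0574, edgeR adjusted p = 2.48e-26).

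The ratio of Arid2 to the sum of Arid1a and Arid1b was between 0.251 and 0.367 in 8 populations, 0.454 in CD11b+ cells, 0.601 in BM and 0.841 in MEP. The MEP libraries ranged from 0.805 to 0.881, above all others, and the CMP libraries from 0.296 to 0.324. With the trend taken out the MEP ratio was 0.859 and the CMP ratio 0.298.

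As fitted, the ARID genes were at their highest in the CLP libraries. Arid1a measured 387, 370 and 392 CPM in CLP, against 73.3, 71.6 and 73.1 CPM in MPP. No library of another population exceeded 101 CPM. Arid1b averaged 116 ± 4.83 CPM in CLP and 45.7 ± 1.24 CPM in MPP, and Arid2 averaged 143 ± 4.35 CPM in CLP and 43.4 ± 0.531 CPM in MPP. The rises over MPP were 5.27-fold for Arid1a, 2.56-fold for Arid1b and 3.30-fold for Arid2 as fitted, with a highest edgeR adjusted p of 5.97e-96. With the trend taken out, the log2 fold change was 0.91 for Arid1a and 0.49 for Arid2, and 0.07 for Arid1b (edgeR adjusted p = 0.167). All 3 are long transcripts of 8187 bases or more. CLP was the highest population for 21.2% of the genes that reached 10 CPM. Of the proliferation markers, Mki67 (1810 CPM in CLP, 126 CPM in MPP) and Top2a (992 CPM in CLP, 486 CPM in MPP) were higher in CLP, and Ccnb1 (186 CPM in CLP, 361 CPM in MPP) and Cdk1 (145 CPM in CLP, 172 CPM in MPP) were lower. Their part in these differences, like that of the basophil, eosinophil and stromal markers given above, was not tested.

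Of the subunits specific to PBAF, Phf10 showed the widest range of the 10 genes, 14.7-fold. It encodes a PHD finger protein of the PBAF module that contacts histone tails. It measured 47.0, 45.6 and 47.5 CPM in MEP, against 6.74, 6.68 and 7.38 CPM in CMP. It measured 54.8, 54.0 and 56.0 CPM in CLP, against 6.93, 5.85 and 6.91 CPM in MPP. In the 9 populations other than these 2 the means lay between 3.73 CPM in B220+ cells and 9.74 CPM in CD11b+ cells. The 2 high populations did not overlap each other or any of the rest.

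Phf10 was 6.67-fold higher in MEP than in CMP (log2 2.74 ± 0.0669, edgeR adjusted p = 9.85e-122) and 8.31-fold higher in CLP than in MPP (3.05 ± 0.0746, edgeR adjusted p = 7.39e-122). Both held with the trend taken out, at 2.70 and 3.46. In B220+ cells it was 15.2-fold lower than in CLP and in CD3e T cells 13.0-fold lower, or -4.39 and -4.15 in log2 with the trend taken out. Counts were small where the level was low, with 36 to 68 reads in the GMP libraries and 554 to 1028 in MEP. Phf10 shares 470 exonic bases with the antisense gene 1600012H06Rik, and whether reads were counted by strand is not given in the sources used here, so reads of the shared stretch cannot be told apart. That neighbour was at 6.84 ± 0.969 CPM in MEP, 16.6 ± 1.17 CPM in CLP and 60.3 ± 1.27 CPM in CD11b+ cells. Its part in the Phf10 counts was not tested.

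Against Dpf2, which encodes the canonical BAF counterpart of PHF10 and varied only 2.25-fold, the Phf10 ratio was 0.283 in MEP and 0.446 in CLP. It was 0.0443 in LT-HSC, 0.0812 in ST-HSC, 0.0396 in MPP, 0.0482 in CMP, 0.0198 in GMP, 0.0600 in CD11b+ cells, 0.0287 in B220+ cells, 0.0320 in CD3e T cells and 0.0738 in BM. The ratio was 5.87-fold higher in MEP than in CMP and 11.3-fold higher in CLP than in MPP, without overlap, and in log2 by 2.59 and 3.83 with the trend taken out.

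Pbrm1, which encodes the bromodomain subunit of PBAF, did not share the MEP rise. It measured 59.3, 53.7 and 53.5 CPM in MEP, against 55.8, 54.6 and 57.3 CPM in CMP. The libraries overlapped, and the log2 fold change was -0.00 ± 0.0428 (edgeR adjusted p = 0.979). With the trend taken out it was 0.68 (edgeR adjusted p = 3.48e-39), and its sign also changed, at 0.01 to 0.02, without CMP library 3, MEP library 2 or MEP library 3. Relative to Arid1a within a library Pbrm1 was at 0.986 in MEP and 0.581 in CMP, Arid1a being lower in MEP. Brd7, a further PBAF gene, rose 2.02-fold in MEP (log2 1.02 ± 0.0435, edgeR adjusted p = 5.33e-65), and its ratio to Brd9, of the non-canonical form, was 2.54 in MEP and 0.906 in CMP.

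In CLP, Pbrm1 averaged 222 ± 8.14 CPM, against 40.8 ± 2.52 CPM in MPP, a 5.41-fold rise (log2 2.44 ± 0.0412, edgeR adjusted p = 8.92e-163) that was 1.25 with the trend out. The rest of the populations lay between 28.5 ± 0.889 CPM in GMP and 64.2 ± 2.31 CPM in B220+ cells, and 5 pairs of neighbours in the order of levels overlapped. Over the 11 population means, Pearson's r between log2 levels was 0.945 for Arid2 and Pbrm1 and 0.873 for Arid1a and Pbrm1. These populations share CLP as a high point and carry no test.

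Of the core genes, Smarcd2 was high in CLP and in CD11b+ cells. It measured 99.1, 99.7 and 98.2 CPM in CD11b+ cells, against 31.7, 31.6 and 33.3 CPM in GMP, with no overlap. The rise was 3.08-fold (log2 1.63 ± 0.0485, edgeR adjusted p = 4.16e-101). Its level was 155 ± 3.21 CPM in CLP, 61.7 ± 0.746 CPM in MEP, 36.4 ± 1.35 CPM in B220+ cells and 18.7 ± 1.18 CPM in CD3e T cells. LT-HSC (18.7 ± 0.811 CPM), BM (19.4 ± 0.942 CPM) and CD3e T cells overlapped at the low end.

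Smarcd1, which encodes the alternative protein of that position, fell 2.15-fold in CD11b+ cells relative to GMP (log2 -1.10 ± 0.0999, edgeR adjusted p = 1.11e-22). The ratio of Smarcd2 to Smarcd1 counts was 13.9 in CD11b+ cells and 2.08 in GMP, a 6.70-fold difference without overlap. It was 6.48 in MEP and 1.26 in CMP, and 1.08 in LT-HSC, the lowest. BM, where neutrophil markers summed to 179000 to 180000 CPM, had Smarcd2 at 19.4 CPM, while CD11b+ cells had neutrophil markers at 142000 to 145000 CPM and Smarcd2 at 99 CPM. Smarcd1 shares exonic bases with antisense genes, so its reads cannot be fully told apart either.

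Smarcc1, which encodes a scaffold protein of the core, ranged 7.44-fold, and in its order of levels no neighbouring populations overlapped. It stood at 181 ± 7.66 CPM in MEP, 159 ± 1.66 CPM in CLP, 129 ± 1.31 CPM in MPP, 83.7 ± 3.4 CPM in GMP and 78.5 ± 0.69 CPM in B220+ cells. Below these came 73.4 ± 1.25 CPM in ST-HSC, 69.8 ± 1.72 CPM in CMP, 56.4 ± 1.92 CPM in CD11b+ cells, 47.0 ± 2.44 CPM in LT-HSC, 26.2 ± 1.23 CPM in CD3e T cells and 24.3 ± 0.422 CPM in BM. In MEP it was 2.59-fold higher than in CMP (log2 1.38 ± 0.0349, edgeR adjusted p = 8.87e-118). Relative to Smarcc2, its paralog in the same complexes, the ratio was 2.6 in MEP, 2.58 in MPP, 0.658 in CLP, 0.434 in CD3e T cells and 0.297 in BM. In CLP against MPP the ratio fell 3.92-fold (log2 -2.21 with the trend out). Smarcc2 was 4.78-fold higher in CLP (log2 2.26 ± 0.0383, edgeR adjusted p = 2.33e-162, and 1.64 with the trend out) and Smarcc1 1.23-fold higher as fitted and -0.56 on the log2 scale with the trend out.

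Smarcb1, which encodes the core subunit that contacts the nucleosome, peaked in GMP. It measured 293, 310 and 289 CPM in GMP, against 127, 135 and 133 CPM in CMP, a 2.26-fold rise (log2 1.18 ± 0.031, edgeR adjusted p = 1.46e-113). That rise was 0.01 (edgeR adjusted p = 0.798) when libraries were scaled by size alone, which put the median of all genes at -1.37. It fell 3.56-fold in CD11b+ cells relative to GMP (log2 -1.83 ± 0.0342, edgeR adjusted p = 7.99e-152). ST-HSC, CD11b+ cells, CD3e T cells and BM lay between 83.4 and 84.6 CPM and overlapped. Over the 11 population means its log2 level had r = -0.779 with that of Smarca2.

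Along the stem cell steps changes were small. In ST-HSC against LT-HSC 3 members were higher, 4 lower and 3 did not pass, beside 29.4% of all genes higher and 33.5% lower. The trend taken out, 6 were higher and 2 lower, beside 6248 genes higher and 6574 lower. Smarca4 was then at 0.09 (edgeR adjusted p = 0.00914) and Arid1a at 0.32 (1.79e-17). Smarcd2 (1.59-fold), Smarcc1 (1.56-fold) and Phf10 (1.39-fold) were the 3 that rose, with a highest edgeR adjusted p of 1.12e-08. Of 18 other subunit genes tested, 7 were higher and 3 lower. They included Bicral (1.77-fold higher, edgeR adjusted p = 2.48e-45) and Brd9 (1.38-fold higher, 3.35e-23), both of the non-canonical form. Stromal markers summed to 3130 to 3150 CPM in LT-HSC and 157 to 159 CPM in ST-HSC, and their part in these differences was not tested.

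In MPP against ST-HSC 3 members were higher, 6 lower and 1 did not pass, beside 33.7% of all genes higher and 40% lower. Smarcb1 (1.84-fold), Smarcc1 (1.76-fold) and Smarca4 (1.35-fold) rose, and all 3 turned with scaling by library size alone, to -0.12, -0.18 and -0.56 on the log2 scale, where the median of all genes was -1.09, 2276 genes were higher and 15159 lower, and all 10 members were lower. The fall of Arid1a was small (log2 -0.10, edgeR adjusted p = 0.0139) and was not called without ST-HSC library 2 (adjusted p = 0.0787). Arid1a, Arid2 and Pbrm1 turned with the trend taken out, to 0.44, 0.39 and 0.54 in log2. In that setting 6 members were higher and 2 lower, beside 7466 genes higher and 7506 lower. Of the other 18 subunit genes 5 were higher and 10 lower, among them Actl6a, an actin-related subunit (1.32-fold higher, though -0.59 with library size alone), and Bicra (3.17-fold lower). Actl6a shares 452 exonic bases with the antisense gene Mrpl47, so its reads cannot be fully told apart here or in the comparisons below. Granulocyte-monocyte progenitor markers summed to 32000 to 32700 CPM in MPP and 255 to 266 CPM in ST-HSC. Basophil and eosinophil markers summed to 8400 to 8670 CPM in MPP and 25.2 to 26.7 CPM in ST-HSC. The part of these markers in the step was not tested.

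In CMP against MPP 4 members were higher and 4 lower, beside 35% of all genes higher and 35.1% lower. The higher ones were Arid1b (1.46-fold), Pbrm1 (1.37-fold), Arid1a (1.33-fold) and Arid2 (1.16-fold), that is, the ARID genes and Pbrm1. With library size alone 9 members were higher and 1 lower, beside 13065 genes higher and 3114 lower, and Smarca2, Smarcb1 and Smarcd2 turned to 0.27, 0.45 and 0.36 in log2. Of the ARID genes and Pbrm1 only Arid1b stayed called and higher with the trend taken out. In that setting 1 member was higher and 6 lower, beside 6865 genes higher and 7531 lower. Smarca4 (log2 0.01, edgeR adjusted p = 0.892) and Phf10 did not pass, and the estimate of Smarca4 lay between -0.02 and 0.00 without CMP library 3, MPP library 2 or MPP library 3. Among the other subunits 8 were higher and 4 lower, with Smarce1, a core gene with an HMG domain, 1.44-fold higher and Bicra 1.78-fold higher. In CMP granulocyte-monocyte progenitor markers summed to 1230 to 1240 CPM, and basophil and eosinophil markers to 14.7 to 19 CPM, both far below MPP. The part of these markers in the step was not tested.

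In CLP against MPP 8 members were higher, 7 of them at least 2-fold, and 1 was lower. Of all genes 39.6% were higher, 28.2% at least 2-fold, and 37.5% were lower. The median log2 fold change of the members was 1.54, that of all genes 0. With library size alone 9 members were higher and 1 lower, beside 10861 genes higher and 4977 lower. With the trend taken out 5 members were higher and 4 lower, beside 7691 genes higher and 7813 lower. Phf10, Smarcd2 (5.60-fold as fitted, log2 2.31 with the trend out), Pbrm1, Arid1a and Arid2 remained higher, and Smarca2, Smarca4 and Smarcc1 were lower at -0.77, -0.21 and -0.56. Among the other subunits 12 were higher and 5 lower, with Bcl7a 8.88-fold and Bicra 7.51-fold higher as fitted, and 6.19-fold and 2.43-fold with the trend out.

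**Figure D3:**
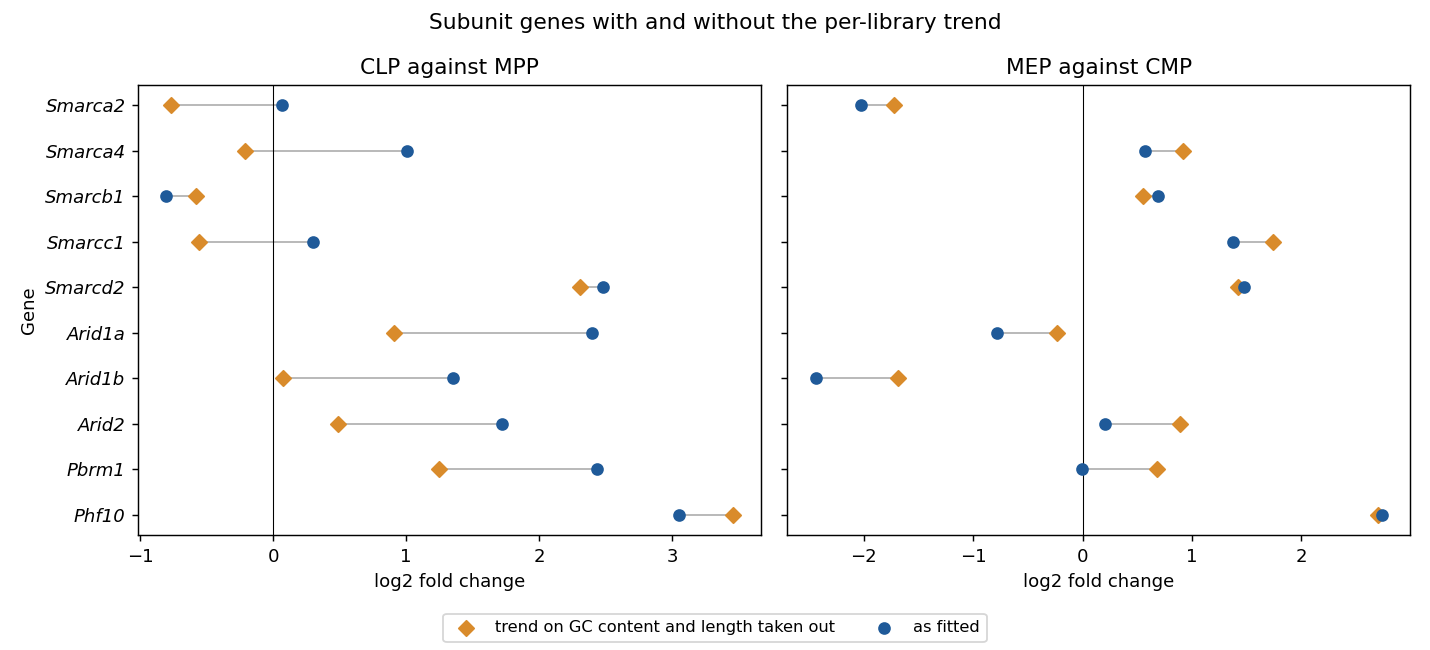
log2 fold change (horizontal axes) of the 10 subunit genes in CLP against MPP and in MEP against CMP, with the per-library trend on GC content and transcript length taken out (diamonds) and as fitted (circles). In CLP against MPP Smarca2, Smarca4 and Smarcc1 cross 0, while in MEP against CMP Smarca2, Arid1b, Smarcc1, Smarcd2 and Phf10 stay on their side.

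In GMP against CMP 3 members were higher and 7 lower, beside 31.9% of all genes higher and 42% lower. The 3 higher were Smarcb1, Smarcd2 (1.45-fold) and Smarcc1 (1.20-fold), all core genes. With library size alone Smarcd2 and Smarcc1 turned to -0.64 and -0.90 on the log2 scale, and 0 members were higher and 9 lower, beside 1998 genes higher and 15085 lower. Arid1a (2.26-fold), Pbrm1 (1.97-fold), Arid2 (1.80-fold), Arid1b (1.66-fold), Phf10 (1.65-fold) and Smarca2 (1.55-fold) fell. With the trend taken out 6 members were called, 3 higher and 3 lower, beside 6658 genes higher and 8197 lower. Arid1b, Arid2 and Pbrm1 were among the members no longer called. The fall of Smarca4 was the smallest (log2 -0.07, edgeR adjusted p = 0.0412) and was not called without CMP library 2 (edgeR adjusted p = 0.0553), CMP library 3 (0.157) or GMP library 3 (0.0829), nor with the replicate number as a block (0.0713). Of the other subunits 5 were higher and 9 lower, with Dpf2 1.48-fold higher (-0.60 in log2 with library size alone) and Bicra 4.39-fold lower.

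In MEP against CMP, which shares the CMP libraries with the GMP comparison, 6 members were higher and 3 lower, beside 34% of all genes higher and 44.4% lower. Phf10, Smarcd2 (2.78-fold), Smarcc1, Smarcb1 (1.61-fold), Smarca4 and Arid2 rose, and Arid1b, Smarca2 and Arid1a fell. With library size alone Smarca4, Smarcb1 and Arid2 turned to -0.34, -0.23 and -0.72, leaving 3 members higher and 7 lower, beside 3385 genes higher and 13578 lower. The median log2 fold change of the members was 0.39, that of all genes -0.25. Of the other subunits 9 were higher and 7 lower, with Actl6a 2.10-fold higher and Bicra 3.54-fold lower. Lymphoid progenitor markers summed to 2.24 to 7.67 CPM in MEP and 3240 to 3270 CPM in CMP, most of it Dntt, and their part in these differences was not tested.

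**Figure D4:**
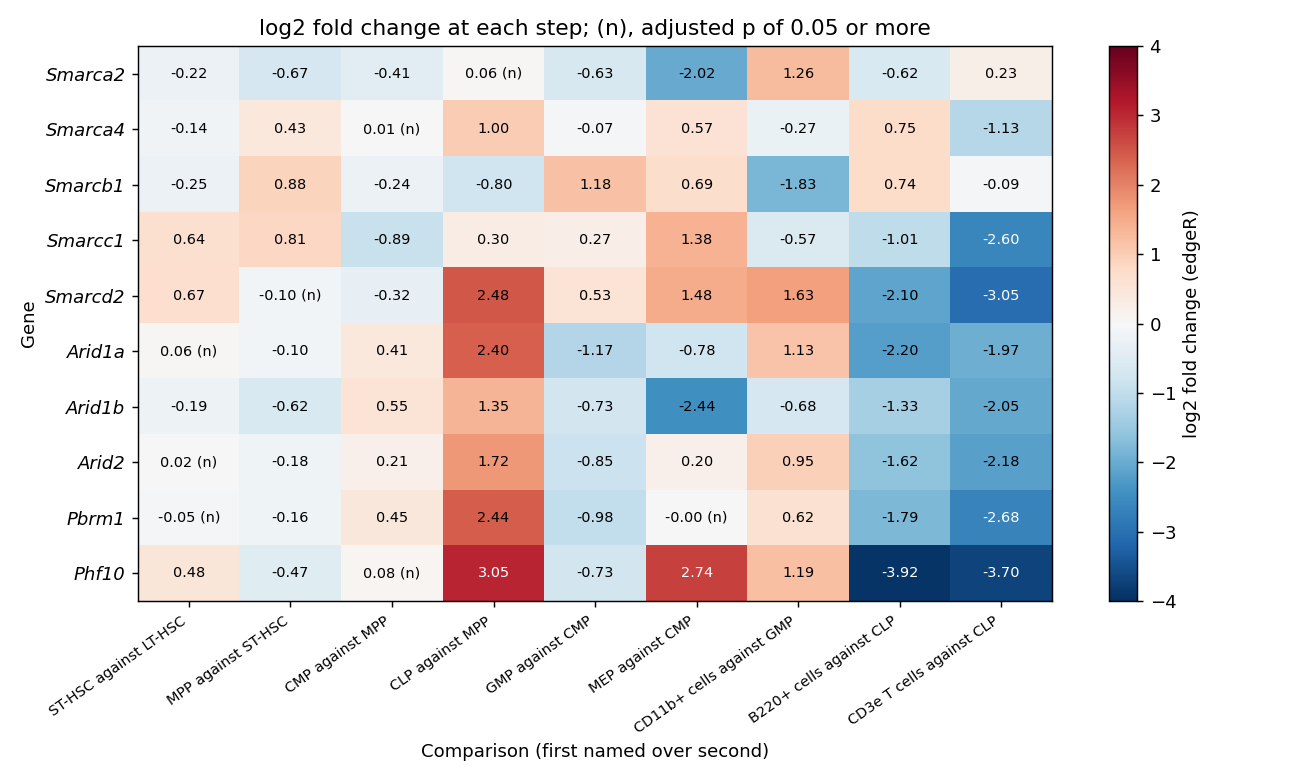
log2 fold change (colour and printed value) of the 10 subunit genes in 9 comparisons of neighbouring populations, the first named over the second, where n in parentheses marks an edgeR adjusted p of 0.05 or more. Smarca2 is at -2.02, Arid1b at -2.44 and Phf10 at 2.74 in MEP against CMP, and Phf10 is at -3.92 in B220+ cells against CLP.

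In CD11b+ cells against GMP 6 members were higher and 4 lower, beside 41.6% of all genes higher and 33% lower. Smarcd2, Smarca2, Phf10 (2.29-fold), Arid1a, Arid2 (1.94-fold) and Pbrm1 (1.54-fold) rose, and Smarcb1, Arid1b, Smarcc1 (1.49-fold) and Smarca4 (1.20-fold) fell. Pbrm1 was at -0.04 with the trend taken out, which left 5 members higher and 4 lower, beside 8310 genes higher and 6887 lower. Smarca4 was at 0.03 with library size alone. Of the other subunits 8 were higher and 8 lower, with Bicra 8.85-fold higher and Actl6a 2.62-fold lower. A test of the difference between this step and the B220+ or the CD3e step, both against CLP, was passed by all 10 members, and by 74.9% and 73.6% of all genes.

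The mature lymphoid fractions were set against the same CLP libraries. In B220+ cells 2 members were higher (Smarca4, 1.68-fold, and Smarcb1, 1.67-fold) and 8 lower, 7 of them at least 2-fold, beside 39.5% of all genes higher, 42.5% lower and 30.7% at least 2-fold lower. In CD3e T cells 1 member was higher (Smarca2, 1.17-fold) and 9 lower, 8 of them at least 2-fold, beside 40.5% of all genes higher, 41.6% lower and 29.9% at least 2-fold lower. With library size alone 0 members were higher and 9 lower in CD3e T cells, beside 7545 genes higher and 9266 lower. Smarca2 was then at 0.06 in log2 (edgeR adjusted p = 0.0885). Smarcb1 was nearly level in CD3e T cells (log2 -0.09, edgeR adjusted p = 0.0123) and was not called without CLP library 1 (adjusted p = 0.0518), CLP library 3 (0.0564) or CD3e library 1 (0.436), nor with DESeq2 (0.554). With the trend taken out 3 members were higher and 6 lower in B220+ cells, beside 8151 genes higher and 8545 lower. In CD3e T cells 1 was higher and 8 lower, beside 8376 genes higher and 8361 lower. In B220+ cells Smarca2 then turned and was at 0.21 in log2, against -0.62 as fitted, and Arid1b, 2.52-fold lower as fitted, was at -0.04 (edgeR adjusted p = 0.319). Neutrophil markers summed to 6530 to 6840 CPM in B220+ cells and 9310 to 9460 CPM in CD3e T cells. In CLP they summed to 40.1 to 44.5 CPM. Their part was not tested, nor was that of the basophil, plasma cell and B cell markers of CD3e T cells. Of the other subunits, Smarcc2 was 3.63-fold lower and Bcl7b 2.14-fold higher in B220+ cells (2.27-fold and 2.11-fold with the trend out), and Bcl7a was 6.79-fold and Bcl7c 8.01-fold lower in CD3e T cells (4.76-fold and 4.06-fold with the trend out). In all, 4 other subunits were higher and 11 lower in B220+ cells, and 5 higher and 12 lower in CD3e T cells.

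The mean of the mature fractions was also set against that of LT-HSC, ST-HSC and MPP. In the mature fractions 3 members were higher and 6 lower, none by 2-fold, beside 38% of all genes higher, 43.2% lower and 39.4% changed by 2-fold or more. Smarcd2 (1.63-fold), Smarca4 (1.59-fold) and Arid1a (1.22-fold) were higher, and Arid1b (1.98-fold), Smarcc1 (1.57-fold) and Smarca2 (1.45-fold) led the lower ones. Arid1a was at -0.13 in log2 with library size alone, where 5102 genes were higher and 12209 lower. Taking out the trend left 5 members higher and 5 lower, beside 8012 genes higher and 8780 lower, with Arid2 turned to 0.17 in log2. Pbrm1 did not pass (edgeR adjusted p = 0.132) but did without MPP library 3 (0.038). Of the other subunits 8 were higher and 8 lower, with Brd9 1.68-fold higher and Bcl7c 2.48-fold lower.

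Genes whose pattern over the 11 population means was most like that of a member were found by Pearson's r of mean log2 CPM, as a description with no test. For Smarca2 they were Jup (0.963), Elac1 (0.959) and Adam9 (0.953). For Smarca4 they included Bcl7a (0.902), itself a subunit gene, and Eldr (0.885). For Smarcd2 they were Snf8 (0.955), Nfxl1 (0.949) and Rab35 (0.949), and for Phf10 Ssx2ip (0.961), Tubgcp3 (0.95) and Pole2 (0.942).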

How the data were processed

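The 33 libraries were made from polyadenylated RNA of 11 populations of mouse marrow. The authors deposited raw read counts per gene, and per the submitters' processing notes the tools were cutadapt, HISAT2, HTSeq and DESeq2 with the build mm39. Versions, annotation release and strand setting are not given in the sources used here. Columns were matched to libraries by name, and 52073 of 56748 gene IDs matched a symbol in GENCODE M21 (GRCm38), which also gave transcript length and GC content. Coordinates come only from the RefSeq promoter table (GRCm38.p6).

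Counts were filtered by population (filterByExpr, 20464 genes left), scaled by TMM (mean factors 0.591 to 1.64) and analysed with edgeR 4.0.16 under R 4.3.3. The model had a coefficient for every population and left 22 residual degrees of freedom, and testing used robust quasi-likelihood F tests. P-values were adjusted by Benjamini-Hochberg over all genes tested, with 0.05 as the threshold. With a common biological coefficient of variation of 2.67%, slight changes can pass. Ratios used counts plus 0.5 within a library and were tested by permuting population labels. Per-gene chi-square between libraries of a population was 1.06 to 2.51 over 33 pairs, and none was treated as a duplicate. Counting noise alone would give a value just below the low end of this range, so some pairs differed by little more. The fit was tested on simulated data.

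All 10 members are named, and other subunit genes only where they passed in the comparison described. Some entries of the marker and likeness lists are not reported here. The members were chosen by symbol, and the lists and rules were written with earlier results of these data known. Alternatives were DESeq2 1.42.0, limma-voom (limma 3.58.1), other size factors, no filter, fewer populations, replicate blocks, leaving out libraries, other pseudocounts for the ratios, and removal, library by library, of the trend of counts with length and GC content. A fit without CLP and the trend correction of the ratios were added after the data were seen.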

Additional observations from a re-analysis of the deposited data

Results flagged for a closer look

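The change at the CD11b+ step (CD11b+ cells against GMP) was set against the change at the B220+ and CD3e steps (each against CLP) by an interaction term in the edgeR fit, and every member passed in both, where 74.9% and 73.6% of all genes passed. The values are differences of log2 fold changes, CD11b+ step minus lymphoid step, and both lymphoid steps share the CLP libraries. Against the B220+ step the differences were 5.12 for Phf10, 3.72 for Smarcd2, 3.33 for Arid1a, 2.58 for Arid2, 2.41 for Pbrm1, 1.88 for Smarca2, 0.65 for Arid1b and 0.44 for Smarcc1. Smarca4 and Smarcb1 went the other way, at -1.01 and -2.57. Against the CD3e step they were 4.90 for Phf10, 4.68 for Smarcd2, 3.30 for Pbrm1, 3.13 for Arid2, 3.10 for Arid1a, 2.03 for Smarcc1, 1.37 for Arid1b, 1.03 for Smarca2 and 0.86 for Smarca4, with Smarcb1 at -1.74. With the length and GC trend taken out Smarcc1 and Arid1b turned against the B220+ step, and Smarca2, Smarca4 and Arid1b against the CD3e step.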

How the results depend on the processing

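With the per-library trend on GC content and transcript length taken out, these log2 fold changes turned. In ST-HSC against LT-HSC Smarca4 was 0.09, Arid1b 0.03 and Pbrm1 0.03. In MPP against ST-HSC Arid1a was 0.44, Arid2 0.39 and Pbrm1 0.54. In CMP against MPP Smarca4 was -0.18, Arid2 -0.18 and Pbrm1 -0.10. In CLP against MPP Smarca2 was -0.77, Smarca4 -0.21 and Smarcc1 -0.56. Smarca4 was 0.02 in GMP against CMP, where 6 members were called, Pbrm1 was 0.68 in MEP against CMP and -0.04 in CD11b+ cells against GMP, Smarca2 was 0.21 in B220+ cells against CLP, and Arid2 was 0.17 in the mature fractions. Against the B220+ step the CD11b+ step was -0.78 for Smarcc1 and -1.09 for Arid1b, and against the CD3e step -0.03 for Smarca2, -0.30 for Smarca4 and -0.31 for Arid1b. The trend correction removes any true relation of expression with length as well, and the cause of the trend was not tested. The 8 ratio tests were called under all alternatives run on them.

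With library size alone Smarca4, Smarcb1, Smarcc1 and Actl6a were -0.56, -0.12, -0.18 and -0.59 in MPP against ST-HSC, and Smarca2, Smarcb1 and Smarcd2 were 0.27, 0.45 and 0.36 in CMP against MPP. Smarcc1, Smarcd2 and Dpf2 were -0.90, -0.64 and -0.60 in GMP against CMP, and Smarca4, Smarcb1 and Arid2 -0.34, -0.23 and -0.72 in MEP against CMP. Smarca4 was 0.03 in CD11b+ cells against GMP, and Arid1a and Pbrm1 were -0.13 and -0.38 in the mature fractions. This setting leaves RNA composition uncorrected and put the median of all genes in GMP against CMP at -1.37 in log2, against -0.22 as fitted. The highest over the lowest population became 23.2 for Smarca2, 6.79 for Smarca4, 2.89 for Smarcb1, 11.2 for Smarcc1, 13.7 for Smarcd2, 18.9 for Arid1a, 16.7 for Arid1b, 10.8 for Arid2, 16.3 for Pbrm1 and 27.5 for Phf10, and with relative log expression factors 4.37 for Smarca4 and 6.86 for Smarcc1. With those factors and with DESeq2 Arid2 was -0.01 in ST-HSC against LT-HSC, and with only the compared populations Smarca2 was -0.04 in CLP against MPP.

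Leaving out single libraries reversed 2 values, both near 0. Smarca4 in CMP against MPP ran from -0.02 to 0.01, and Pbrm1 in MEP against CMP from -0.08 to 0.02. Same-numbered libraries had correlations of their deviations between -0.0159 and 0.081. Counting noise makes up part of these deviations, so the values cannot show whether same-numbered libraries shared an animal or a batch. The replicate block changed 1 call, Smarca4 in GMP against CMP (log2 -0.07, edgeR adjusted p = 0.0713). Under limma-voom no call changed among 143 gene results. Without CLP none changed among 86, since comparisons that use CLP cannot be made in that fit. It therefore says nothing about results that rest on CLP. Depth limits Phf10 most, with 36 reads in its lowest library.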

Other observations

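Genes of the non-canonical form, which carries BRD9 and lacks an ARID subunit, also varied. Bicra, which encodes a subunit that marks this form, was at 41.2 ± 1.98 CPM in CLP, 22.2 ± 1.05 CPM in B220+ cells, 19.9 ± 0.687 CPM in CD3e T cells, 19.7 ± 0.428 CPM in CD11b+ cells, 2.86 ± 0.732 CPM in MEP and 2.13 ± 0.586 CPM in GMP (SD, n = 3). Bicral, its paralog, ranged from 12.4 ± 0.312 CPM in GMP to 59.1 ± 1.02 CPM in CLP, but shares 772 exonic bases with an antisense gene. The length and GC trend is not taken out of these levels. In log2 it was 1.35 in CLP and -0.36 in B220+ cells for Bicra, and 0.8 and -0.12 for Bicral. Whether CLP or B220+ cells stood highest for these genes therefore depends on the trend. Brd9 was at 75.6 ± 3.32 CPM in CD11b+ cells and 31.3 ± 1.72 CPM in GMP. Ss18, a BAF subunit shared by the canonical and non-canonical forms, varied by 1.81-fold over the 11 populations, the smallest range of the subunit genes tested. Actl6b, the neuronal counterpart of Actl6a, did not have enough counts to be tested.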
